A study of Homo sapiens with 14 samples.

Results

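The proteasome genes described here were the 48 of 58051 genes in the deposited tables whose symbol was PSM, a letter from A to G and a number. They comprised the 7 alpha subunits (PSMA1 to PSMA7) and the 7 constitutive beta subunits (PSMB1 to PSMB7) of the core particle, and the 5 genes of the immunoproteasome and its activator cap (PSMB8, PSMB9, PSMB10, PSME1 and PSME2). The regulatory particle contributed 6 ATPases (PSMC1 to PSMC6) and 11 non-ATPases (PSMD1 to PSMD4, PSMD6 to PSMD8 and PSMD11 to PSMD14). The remaining members were 7 assembly factors (PSMG1 to PSMG4, PSMD5, PSMD9 and PSMD10), 3 other regulators (PSME3, PSME4 and PSMF1) and 2 tissue-restricted subunits (PSMA8 and PSMB11). Poly(A) RNA was sequenced from 14 libraries of the human myeloma lines MM1.S, known for a MAF translocation, and H929, known for a translocation of FGFR3 and NSD2. Each of the 7 groups had 2 libraries: MM1.S with a scramble hairpin, shRNA1 or shRNA2, and H929 with shRNA1, shRNA2 or a scramble hairpin, for which the labels name a separate group for each anti-ZBP1 hairpin. All hairpins, scramble included, were delivered by lentivirus into cells kept in RPMI medium with fetal bovine serum. The labels give neither the time after transduction nor whether cells were cloned, and no untransduced cells were among the groups. Whether both libraries in a group derive from independent cultures is nowhere labelled, and every p-value here therefore reflects library-to-library spread that could be technical.

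The proteasome degrades proteins that carry ubiquitin chains. Its core particle is a barrel of stacked alpha and beta rings, in which PSMB5, PSMB6 and PSMB7 hold the proteolytic sites, and the regulatory particle binds ubiquitin, removes it and threads the unfolded substrate in with a ring of ATPases. In cells exposed to interferon and in many blood cells PSMB8, PSMB9 and PSMB10 take the places of PSMB5, PSMB6 and PSMB7, and PSME1 and PSME2 form the PA28 cap, which opens the core without ATP. Plasma cells and myeloma cells secrete large amounts of immunoglobulin, and myeloma is treated with proteasome inhibitors such as bortezomib, which binds PSMB5.

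The libraries held 20461980 to 28419331 counted reads in MM1.S and 15926867 to 22254348 in H929, of which 9.87% to 12.1% and 5.98% to 8.80% were mitochondrial. MM1.S levels are given as TMM-normalised CPM (counts scaled to library size) and H929 levels as the deposited normalised count, so levels are not compared between the lines. ZBP1, the target of the hairpins and a sensor of nucleic acids, was at 138 and 146 CPM in MM1.S scramble, 22.2 and 26.3 with shRNA1 and 14.8 and 18.0 with shRNA2. ZBP1 in H929 was at 4269 and 4513 in the scramble for shRNA1, 1659 and 1888 with shRNA1, 3449 and 3729 in the scramble for shRNA2 and 1229.5 and 1109.6 with shRNA2. Every hairpin library lay below its scramble libraries. All 8 plasma cell and myeloma markers examined were expressed in every library, and FGFR3 was at 4916 to 19463 in H929 and under 1 CPM in MM1.S. Of 12 T cell, myeloid, epithelial and fibroblast markers, COL1A1 stood at 431 to 528 with H929 shRNA1 against 14.5 to 17.5 in its scramble libraries while COL1A2 was at 0 to 1.65. KRT8 there was at 94.8 to 114 against 37.0 to 56.0. CD3E was at 385 to 510.5 with H929 shRNA2 against 126 to 135, while CD3D and CD2 were at 0 to 1.68 in the same libraries. KRT18 was at 133 to 320.4 over the H929 libraries, the 5 markers not yet named were at 0 to 52.2 there, and all 12 were at 0 to 6.39 CPM in MM1.S. The part of these genes in the results was not tested.

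Of the 48 genes, 46 had enough reads to be tested, and most of those that changed were lower with each hairpin than in its own scramble libraries. For H929 shRNA2 that direction depended on the scramble group: 7 were lower and 20 higher against the other group, and 13 and 10 against all 4 scramble libraries. The shares of all genes called against all 4 are not reported here. With shRNA1 in MM1.S, 31 members fell and 1, PSMB5, rose at an adjusted p under 0.05, where 19.7% of all 17820 tested genes fell and 17.8% rose. The members' median log2 fold change was -0.55, beside a median near 0 (0.0024) over all tested genes, and 44 of the 46 values were below 0. With shRNA2 in MM1.S, 15 members fell and 3 rose (PSMB5, PSMB10 and PSMD5), against 21.7% and 14.9% of all tested genes, and the members' median was -0.20. Both MM1.S comparisons used the same scramble libraries. In bulk libraries such as these, fewer cells of a type and less RNA per cell cannot be told apart. In H929, 22 members fell and 4 rose with shRNA1 (PSMA2, PSMB5, PSMD5 and PSME4), against 27.7% and 25.7% of all 18213 tested genes, with a members' median of -0.25. With shRNA2 in H929, 24 fell and 4 rose (PSMC6, PSMD5, PSMD10 and PSMF1), against 25.0% and 18.0%, with a members' median of -0.28. PSMA8, a testis subunit, and PSMB11, the thymus subunit, were at or near 0 in every library and were not tested.

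With shRNA1, 21 members were lower in both lines, of 31 in MM1.S and 22 in H929 (67.7% and 95.5%), where 66.0% and 47.5% of all genes called lower in MM1.S and H929 were lower in both. With the same hairpin 1 member (PSMB5) was higher in both, of 1 in MM1.S and 4 in H929. Of all genes called higher in MM1.S and H929, 57.8% and 39.6% were higher in both. For shRNA2, 14 members were lower in both lines, of 15 in MM1.S and 24 in H929 (93.3% and 58.3%), beside 68.3% and 57.2% over all genes. With shRNA2, 1 member (PSMD5) was higher in both, of 3 in MM1.S and 4 in H929, beside 57.2% and 49.5% over all genes. These shares over all genes were taken over the 15761 genes tested in both lines. Scaling to the total count moved the median of all genes by 0.12 (MM1.S shRNA1), 0.10 (MM1.S shRNA2), 0.16 (H929 shRNA1) and 0.15 (H929 shRNA2) on the log2 scale, and the members' medians to -0.43, -0.093, -0.092 and -0.12. The medians of all genes were then 0.12, 0.077, 0.15 and 0.14. Under that scaling 26 members were lower and 1 higher in MM1.S shRNA1, 8 and 6 in MM1.S shRNA2, 16 and 6 in H929 shRNA1, and 15 and 8 in H929 shRNA2. The shares of all genes called under that scaling are not reported here, so these counts have no background beside them. Leaving out MM1.S shRNA2 replicate 2 gave 1 higher member with MM1.S shRNA2 in place of 3, and leaving out MM1.S shRNA1 replicate 1 gave 14 lower members with MM1.S shRNA1 in place of 31. The lower members with MM1.S shRNA2 numbered 3 in place of 15 without shRNA2 replicate 1, 5 without shRNA2 replicate 2 and 7 without scramble replicate 1, and 9 without either shRNA1 library.

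**Figure D1:**
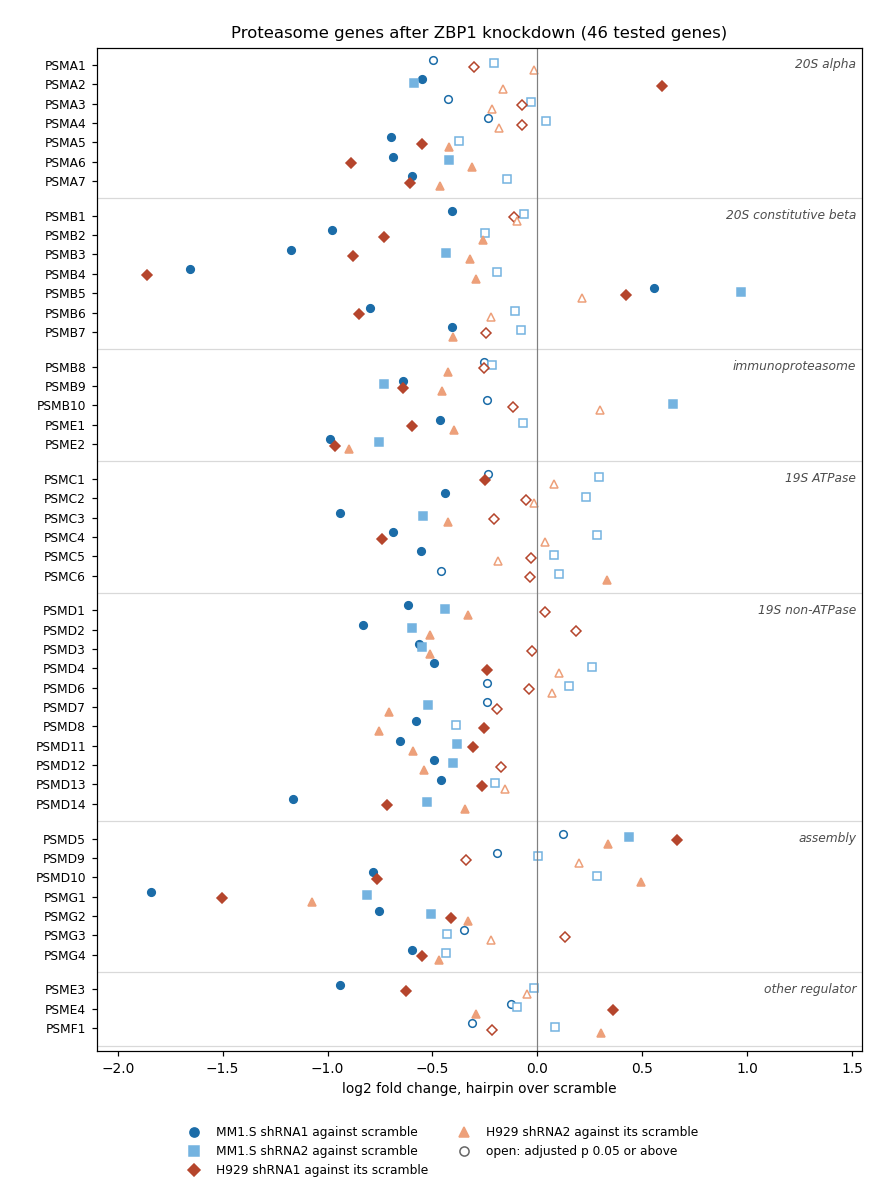
Log2 fold change of each of the 46 tested proteasome genes (rows, grouped by class) in the 4 hairpin comparisons; filled symbols passed an adjusted p of 0.05 and open symbols did not. Most symbols lie left of 0, the leftmost being PSMB4 and PSMG1 with shRNA1, and PSMB5 lies right of 0 in all 4 comparisons against its own scramble libraries.

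Among the immunoproteasome genes the PA28 subunit PSME2 and the catalytic subunit PSMB9 fell with each hairpin in each line. PSME2, the beta subunit of PA28, was at 119 and 105 CPM in MM1.S scramble, 55.9 and 57.0 with shRNA1 and 66.9 and 66.0 with shRNA2. H929 had PSME2 at 3192 and 3070.2 in the scramble for shRNA1 and 1556 and 1657 with shRNA1, and at 3618 and 4208 in the scramble for shRNA2 and 2144 and 2043 with shRNA2. The hairpin libraries thus lay below their scramble libraries throughout, at 50.4%, 59.3%, 51.3% and 53.5% of the scramble mean. The log2 fold changes were -0.99 (SE 0.12, adjusted p = 0.00064) and -0.75 (SE 0.12, adjusted p = 0.0022) in MM1.S, and -0.96 (SE 0.090, adjusted p = 2.0e-07) and -0.90 (SE 0.090, adjusted p = 1.0e-06) in H929. PSME2 also fell when H929 was compared with the other scramble group, by 1.28 with shRNA1 and by 0.58 with shRNA2. Its level was higher in the scramble for shRNA2, so the former was largely fixed in advance. No alternative that kept the study's own controls ended any of the 4 calls.

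PSMB9, which replaces PSMB6 in the immunoproteasome, was at 40.6 and 43.3 CPM in MM1.S scramble, 25.9 and 27.8 with shRNA1 and 24.5 and 26.1 with shRNA2. In H929 it was at 1098 and 1150.2 in the scramble for shRNA1 and 690.4 and 754 with shRNA1, and at 908 and 893 in the scramble for shRNA2 and 656 and 659 with shRNA2. No hairpin library reached its scramble libraries in either line. The log2 fold changes were -0.64 (SE 0.13, adjusted p = 0.0058), -0.73 (SE 0.13, adjusted p = 0.0035), -0.64 (SE 0.093, adjusted p = 2.4e-05) and -0.45 (SE 0.093, adjusted p = 0.00094) in the same order. Against the other H929 scramble group they were -0.32 and -0.77, both called. PSMB9 was lower in the scramble for shRNA2, so the second of these was largely fixed in advance. The MM1.S shRNA1 call was lost without MM1.S shRNA1 replicate 1. PSME1, the partner of PSME2 in PA28, was at 103 and 97.8 CPM in MM1.S scramble, 71.2 and 74.6 with shRNA1 and 95.3 and 96.8 with shRNA2, the last close to scramble. In H929 PSME1 was at 2784 and 3013 in the scramble for shRNA1 and 1894 and 1937 with shRNA1, and at 2823 and 3255 in the scramble for shRNA2 and 2279.9 and 2323 with shRNA2. PSME1 fell with shRNA1 in MM1.S, -0.47 (SE 0.11, adjusted p = 0.013), and with both H929 hairpins, -0.60 (SE 0.089, adjusted p = 3.2e-05) and -0.40 (SE 0.089, adjusted p = 0.0019), whereas with MM1.S shRNA2 the value was -0.067 (SE 0.11, adjusted p = 0.67). Leaving out MM1.S scramble replicate 1 or either MM1.S shRNA1 library ended the MM1.S shRNA1 call of PSME1.

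The other immunoproteasome catalytic subunits moved less. PSMB8, which replaces PSMB5, was at 55.6 and 56.0 CPM in MM1.S scramble, 46.4 and 47.1 with shRNA1 and 44.8 and 51.4 with shRNA2. The hairpin libraries were lower without passing the test (-0.26, SE 0.12, adjusted p = 0.14 and -0.22, SE 0.12, adjusted p = 0.2). With a replicate block in the edgeR fit both were called lower (adjusted p = 0.0063 and 0.015), as were more of all genes. H929 had PSMB8 at 1147 and 1395 against 1030.2 and 1094 for shRNA1, -0.25 (SE 0.10, adjusted p = 0.0505), not called, and at 1213 and 1299.8 against 894 and 979 for shRNA2, where it fell, -0.42 (SE 0.10, adjusted p = 0.0037). PSMB10, which replaces PSMB7, was the only gene of this class that rose in any comparison: with MM1.S shRNA2 it went from 35.5 and 42.8 to 52.6 and 70.0 CPM, 0.65 (SE 0.18, adjusted p = 0.028). That call was lost without MM1.S scramble replicate 1 or MM1.S shRNA2 replicate 2. With MM1.S shRNA1 PSMB10 was at 29.7 and 36.7 CPM, overlapping scramble (-0.24, SE 0.19, adjusted p = 0.34), and neither H929 value passed. With the replicate block in the edgeR fit PSMB10 was called lower with MM1.S shRNA1 (-0.24, adjusted p = 0.0092). In that fit it was called higher with MM1.S shRNA2 (0.64, adjusted p = 7.7e-06). H929 had PSMB10 at 584 and 756 against 552 and 680.4 for shRNA1, -0.12 (SE 0.13, adjusted p = 0.47), and at 533 and 528 against 637 and 669 for shRNA2, 0.30 (SE 0.13, adjusted p = 0.07). In the main fits, 3 of the 5 immunoproteasome genes fell with MM1.S shRNA1 (median -0.47), 2 fell and 1 rose with MM1.S shRNA2 (-0.22), 3 fell with H929 shRNA1 (-0.60) and 4 with H929 shRNA2 (-0.42). With the replicate block PSMB8 and PSMB10 were lower with MM1.S shRNA1 as well. None of the 5 differed between the lines or between the H929 hairpins at an adjusted p under 0.05. PSMB8 and PSMB9 overlap on opposite strands of chromosome 6, and PSME1 and PSME2 each overlap an annotated gene on the opposite strand of chromosome 14. Over all members 19 lie on annotated exons of an opposite-strand gene, PSMD14, PSME3, PSMG2 and PSMG4 among them. Whether counting used strand is not given in the sources used here, so reads of overlapping exons cannot be told apart.

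**Figure D2:**
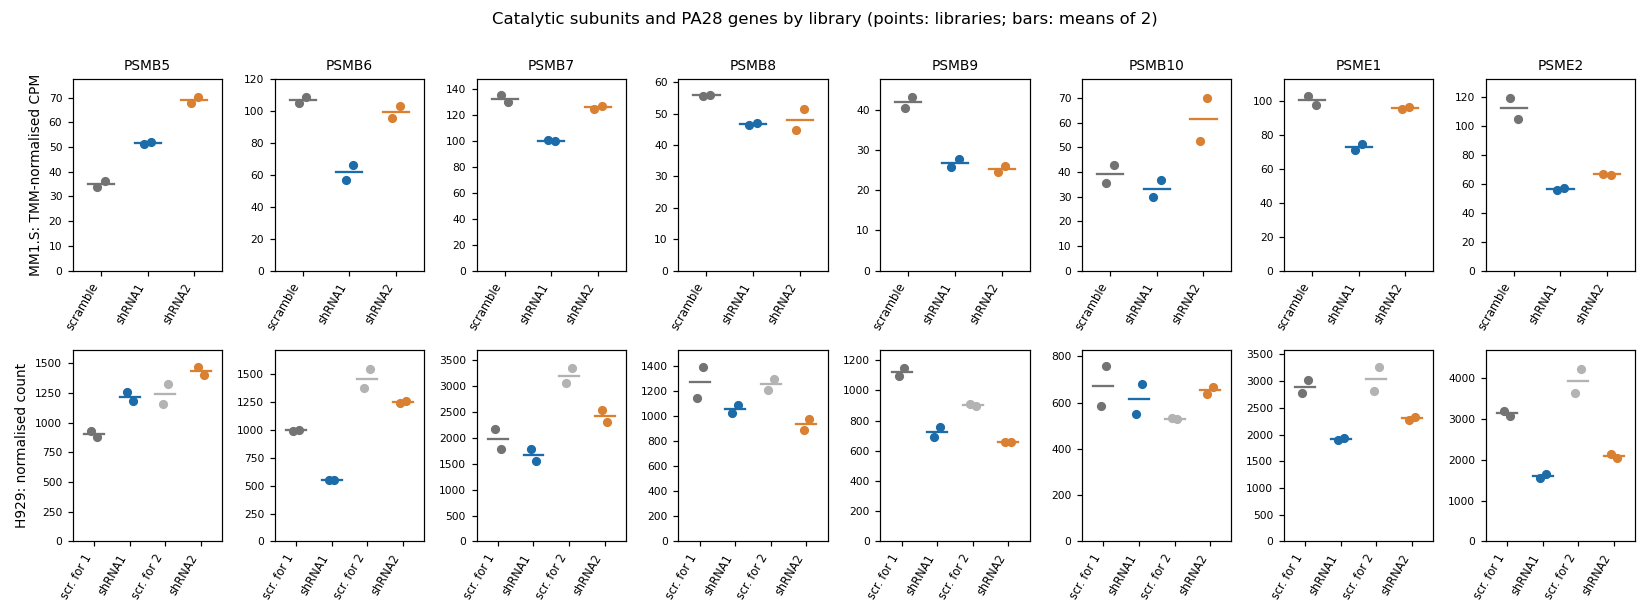
Levels of the catalytic subunits and of PSME1 and PSME2 in each library, MM1.S in CPM (top) and H929 in deposited normalised counts (bottom); points are libraries, bars means of 2, and both axes start at 0. PSME2 and PSMB9 lie lower with every hairpin than in its scramble libraries, and PSMB5 lies higher.

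PSMB5, the chymotrypsin-like subunit that bortezomib binds, rose in 3 of the 4 comparisons with the study's own scramble libraries. In MM1.S it was at 34.0 and 36.2 CPM in scramble, 51.1 and 52.2 with shRNA1 and 67.7 and 70.1 with shRNA2, that is at 147% and 196% of scramble. In H929 it was at 935 and 879 in the scramble for shRNA1 and 1256 and 1180.3 with shRNA1, and at 1155 and 1327 in the scramble for shRNA2 and 1468 and 1405 with shRNA2. Every hairpin library lay above its own scramble libraries. PSMB5 rose in MM1.S, 0.56 (SE 0.12, adjusted p = 0.0072) and 0.97 (SE 0.12, adjusted p = 0.00061), and with H929 shRNA1, 0.43 (SE 0.095, adjusted p = 0.0013), while with H929 shRNA2 the value was 0.21 (SE 0.095, adjusted p = 0.08). The H929 values depended on the scramble group: against the other one, shRNA1 gave -0.025 (adjusted p = 0.84) and shRNA2 gave 0.66 (adjusted p = 5.2e-05). The scramble libraries for shRNA2 were higher in PSMB5 by 0.45 on the log2 scale. PSMB6, the caspase-like subunit, was at 105 and 109 CPM in MM1.S scramble, 56.9 and 66.2 with shRNA1 and 95.6 and 103 with shRNA2. PSMB6 in H929 stood at 992 and 999.6 against 551 and 551 for shRNA1 and 1377 and 1543 against 1239.6 and 1259 for shRNA2. It fell with shRNA1 in both lines, -0.80 (SE 0.13, adjusted p = 0.0021) and -0.85 (SE 0.091, adjusted p = 9.0e-07), and had values of -0.11 (SE 0.12, adjusted p = 0.54) and -0.22 (SE 0.091, adjusted p = 0.059) with shRNA2. PSMB7, the trypsin-like subunit, fell with MM1.S shRNA1 (135 and 130.1 to 101 and 99.6 CPM, -0.41, SE 0.11, adjusted p = 0.021) and with H929 shRNA2 (3063 and 3342 to 2543 and 2303, -0.40, SE 0.11, adjusted p = 0.0059). Its other values were -0.076 (SE 0.11, adjusted p = 0.61) with MM1.S shRNA2 and -0.24 (SE 0.11, adjusted p = 0.063) with H929 shRNA1. Against the other H929 scramble group the shRNA2 values of PSMB6 and PSMB7 were 0.33 and 0.30, both called higher.

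The ratio of the immunoproteasome subunit to the constitutive one that it replaces was taken per kilobase of transcript in each library. PSMB8 over PSMB5 was 1.78 and 1.89 in MM1.S scramble, 1.04 and 1.05 with shRNA1 and 0.76 and 0.84 with shRNA2. In H929 it was 1.41 and 1.83 in the scramble for shRNA1 and 0.94 and 1.07 with shRNA1, and 1.13 and 1.21 in the scramble for shRNA2 and 0.70 and 0.80 with shRNA2. This ratio was thus lower in the hairpin libraries than in their scramble libraries in each comparison, with no overlap. PSMB9 over PSMB6 was 0.42 and 0.43 in MM1.S scramble, 0.46 and 0.50 with shRNA1 and 0.28 and 0.28 with shRNA2. In H929 it was 1.21 and 1.25 against 1.37 and 1.49 for shRNA1 and 0.63 and 0.72 against 0.57 and 0.58 for shRNA2. It was therefore higher with shRNA1 and lower with shRNA2 than in the hairpin's own scramble libraries in both lines, although PSMB9 itself fell with both hairpins. The H929 scramble groups differed from each other in this ratio by more than either H929 hairpin differed from its own. PSMB10 over PSMB7 was 0.21 and 0.26 in MM1.S scramble, 0.24 and 0.30 with shRNA1 and 0.34 and 0.44 with shRNA2. The H929 values were 0.22 and 0.34 against 0.25 and 0.35 and 0.13 and 0.14 against 0.20 and 0.23. The shRNA1 libraries overlapped scramble for that ratio in both lines and the shRNA2 libraries lay above, each against its own scramble libraries. Against the other H929 scramble group it was the other way: the shRNA1 libraries lay above and the shRNA2 libraries overlapped. With 2 libraries in each group an exact permutation test of a ratio cannot reach 0.05, so none was run.

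**Figure D3:**
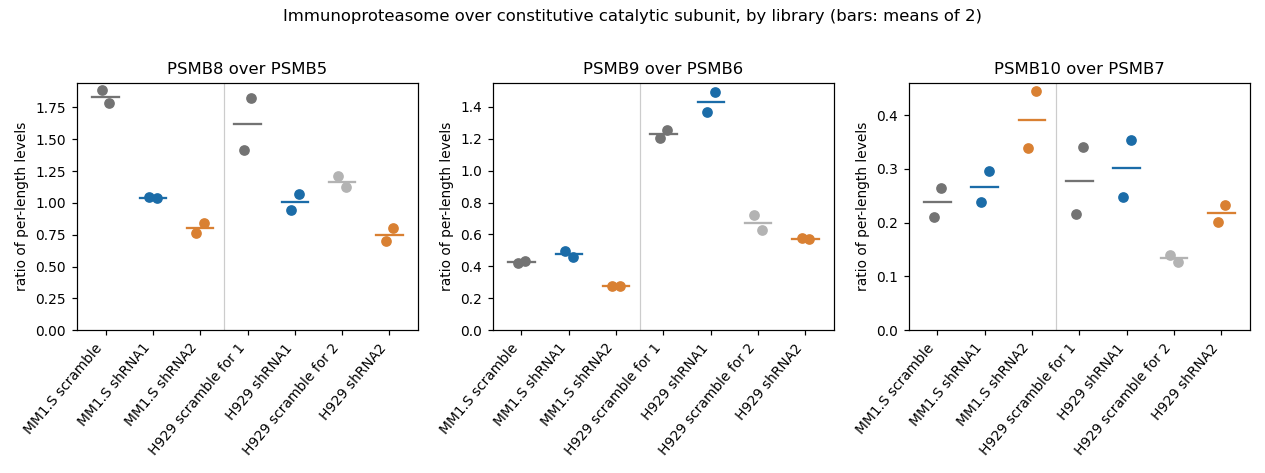
Ratio of each immunoproteasome catalytic subunit to its constitutive counterpart, per kilobase of transcript, in each of the 14 libraries (points; bars are means of 2; axes start at 0). PSMB8 over PSMB5 runs from 1.78 and 1.89 in MM1.S scramble down to 0.76 and 0.84 with shRNA2, and PSMB9 over PSMB6 lies above scramble with shRNA1 and below it with shRNA2.

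The 250 bases before the annotated start of 4 members are shown as examples: PSME2 and PSMB9 fell with each hairpin against either H929 scramble group, PSMB5 rose in 3 of the 4 comparisons, and PSMB4, described next, had the highest level per kilobase. The sequences are RefSeq's on GRCh38.p14, 5′ to 3′ on the gene's strand: PSME2 chr14:24146611-24146860, minus strand, PSMB9 chr6:32853942-32854191, plus strand, PSMB5 chr14:23035221-23035470, minus strand, and PSMB4 chr1:151399323-151399572, plus strand. The genes themselves span chr14:24143362-24147570, minus strand, chr6:32844136-32859585, plus strand, chr14:23016543-23035230, minus strand and chr1:151399534-151401944, plus strand in GENCODE 29 (GRCh38), in the same order. Capitals mark a match, on either strand, to the antioxidant response element core TGACNNNGC, the interferon-stimulated response element core (GAAANN followed by GAAA) or the CCAAT box.
PSME2: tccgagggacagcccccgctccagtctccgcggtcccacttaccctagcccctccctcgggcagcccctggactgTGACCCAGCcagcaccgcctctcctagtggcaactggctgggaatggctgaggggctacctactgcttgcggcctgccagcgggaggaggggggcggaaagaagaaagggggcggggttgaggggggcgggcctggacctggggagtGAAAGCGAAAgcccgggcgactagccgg
PSMB9: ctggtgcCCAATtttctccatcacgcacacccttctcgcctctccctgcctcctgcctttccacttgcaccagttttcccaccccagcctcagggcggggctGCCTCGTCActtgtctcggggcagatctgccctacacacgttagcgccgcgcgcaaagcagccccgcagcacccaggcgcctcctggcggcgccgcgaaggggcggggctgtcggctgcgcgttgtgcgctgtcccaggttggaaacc
PSMB5: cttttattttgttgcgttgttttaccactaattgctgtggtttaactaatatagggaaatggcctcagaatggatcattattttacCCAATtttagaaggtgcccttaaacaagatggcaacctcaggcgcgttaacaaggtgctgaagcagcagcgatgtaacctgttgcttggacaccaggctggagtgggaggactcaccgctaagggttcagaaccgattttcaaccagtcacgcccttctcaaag
PSMB4: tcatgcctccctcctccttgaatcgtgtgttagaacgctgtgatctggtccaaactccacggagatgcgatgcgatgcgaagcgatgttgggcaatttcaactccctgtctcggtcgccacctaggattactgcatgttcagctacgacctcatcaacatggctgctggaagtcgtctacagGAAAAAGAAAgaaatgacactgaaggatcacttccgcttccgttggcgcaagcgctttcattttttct
The PSME2 window held TGACNNNGC 175 bases and the interferon-stimulated core 28 bases before the start, PSMB9 held TGACNNNGC 148 and CCAAT 243 bases before it, PSMB5 held CCAAT 164 bases before it, and PSMB4 held the interferon-stimulated core 68 bases before it. TGACNNNGC was in 11 of the 42 members matched to a promoter (26.2%) and in 11.0% of 27305 RefSeq promoters of this length, the interferon-stimulated core in 5 (11.9%) and 3.07%, and CCAAT in 18 (42.9%) and 33.0%. In all, 15 motifs were searched; these 3 and the 4 promoters were chosen for printing after the values were seen, and a match says only that the letters are there. Of the others, the ETS site CCGGAAG was in 10 of 42 members and 8.82% of all promoters, the looser TGANNNNGC, which contains TGACNNNGC, in 23 and 35.4%, TTCNNNGAA in 5 and 6.78%, and the E-box CACGTG in 3 and 6.49%; the remaining 8 (TGANTCAGC, TGAGTCA, TTCCNGGAA, TTTGGCGC, TTTCCCGC, the NRF1 palindrome, the NF-kappaB site and the ZNF143 site) were each in 0 to 2 members and in 0.183% to 4.16% of all promoters.

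PSMB4, a structural beta subunit of the core and the member with the highest level per kilobase in each scramble group, fell mainly with shRNA1. It was at 324 and 358 CPM in MM1.S scramble, 101 and 115 with shRNA1 and 271 and 326 with shRNA2. PSMB4 in H929 stood at 7824 and 7310.0 against 2070.4 and 2095 for shRNA1 and 9803 and 10849 against 8460.2 and 8386 for shRNA2. The shRNA1 libraries stood at 31.7% and 27.5% of scramble in MM1.S and H929, below every other library of their line. The log2 fold changes with shRNA1 were -1.66 (SE 0.14, adjusted p = 0.00014) and -1.86 (SE 0.083, adjusted p = 7.0e-11). With shRNA2 they were -0.19 (SE 0.14, adjusted p = 0.31), not called, and -0.29 (SE 0.083, adjusted p = 0.0098), called lower. The latter was 0.16 and not called against the other scramble group. PSMB4 was higher with shRNA2 than with shRNA1 in MM1.S, 1.47 (SE 0.14, adjusted p = 0.00031), and the effects of the hairpins differed in H929, 1.57 (SE 0.12, adjusted p = 6.6e-08). PSMB3, another beta subunit, was called lower with each hairpin: -1.18 (SE 0.14, adjusted p = 0.00051) and -0.44 (SE 0.13, adjusted p = 0.036) in MM1.S, -0.88 (SE 0.10, adjusted p = 2.5e-06) and -0.32 (SE 0.10, adjusted p = 0.019) in H929. Its MM1.S levels were 115 and 118 CPM in scramble, 47.8 and 55.3 with shRNA1 and 79.3 and 92.9 with shRNA2, and the shRNA2 call was lost in 7 of 12 alternatives, among them each that left out 1 library. Against the other scramble group, however, PSMB3 with H929 shRNA2 stood at 0.15, not called. PSMB2 and PSMB1, structural beta subunits, fell with MM1.S shRNA1 by 0.98 and 0.41, and PSMB2 also fell with H929 shRNA1 and shRNA2, by 0.73 and 0.26. The last of these was called higher against the other scramble group (0.33), and the PSMB1 call was lost in 7 of 12 alternatives. Thus 6 of the 7 constitutive beta subunits fell and 1 rose with MM1.S shRNA1, 4 fell and 1 rose with H929 shRNA1, 1 fell and 1 rose with MM1.S shRNA2, and 4 fell with H929 shRNA2.

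Of the alpha subunits, which form the gates of the core, 4 of 7 fell with MM1.S shRNA1 (median -0.55), 2 with MM1.S shRNA2 (-0.20), 3 with H929 shRNA1 (-0.30) and 3 with H929 shRNA2 (-0.22). PSMA6 was called lower in each: -0.69 (SE 0.14, adjusted p = 0.0074) and -0.42 (SE 0.14, adjusted p = 0.0499) in MM1.S, -0.89 (SE 0.12, adjusted p = 8.8e-06) and -0.31 (SE 0.12, adjusted p = 0.041) in H929. Its levels were 18.7 and 17.5 CPM in MM1.S scramble, 11.4 and 11.0 with shRNA1 and 13.9 and 13.1 with shRNA2, and the MM1.S shRNA2 call was lost in 11 of 12 alternatives. Its H929 levels were 449 and 390.2 against 241 and 212 for shRNA1 and 558 and 542 against 435 and 452 for shRNA2, and the shRNA2 call was lost in 8 of 16 alternatives with its own scramble libraries and against the other ones. PSMA5 and PSMA7 fell in 3 comparisons each, all but MM1.S shRNA2, with log2 fold changes from -0.70 to -0.42 and from -0.61 to -0.46. PSMA2 moved in opposite directions in the 2 lines with shRNA1: it was at 10.3 and 8.25 against 6.71 and 5.94 CPM in MM1.S, -0.55 (SE 0.18, adjusted p = 0.0472), and at 68.1 and 65.7 against 103 and 99.4 in H929, 0.59 (SE 0.18, adjusted p = 0.011). The MM1.S call was lost in 10 of 12 alternatives, the H929 value against the other scramble group was 0.11, not called, and 3 annotated pseudogenes of PSMA2 could share its reads. PSMA1, PSMA3 and PSMA4 passed in none of the 4 comparisons, with values from -0.50 (PSMA1, MM1.S shRNA1) to 0.042 (PSMA4, MM1.S shRNA2).

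The 6 ATPases of the regulatory particle unfold the substrate. Of these, 4 fell with shRNA1 in MM1.S (median -0.51) and 2 in H929 (-0.13), and with shRNA2 1 fell in MM1.S (0.17) and 1 fell and 1 rose in H929 (0.012). PSMC4 was at 106 and 111 CPM in MM1.S scramble, 61.0 and 73.6 with shRNA1 and 123 and 141 with shRNA2. PSMC4 in H929 stood at 1989 and 1673 against 1134 and 1048 for shRNA1 and 2441 and 2799.6 against 2689 and 2680.3 for shRNA2. The shRNA1 libraries were the lowest of each line, and the fold changes were -0.69 (SE 0.14, adjusted p = 0.0063) and -0.74 (SE 0.10, adjusted p = 1.1e-05) with shRNA1 and 0.29 (SE 0.14, adjusted p = 0.14) and 0.039 (SE 0.10, adjusted p = 0.78) with shRNA2. The difference between hairpins for PSMC4 was 0.97 (SE 0.14, adjusted p = 0.0015) in MM1.S and 0.78 (SE 0.14, adjusted p = 0.00033) in H929, and the MM1.S shRNA1 call was lost without MM1.S shRNA1 replicate 1. PSMC3 fell with both hairpins in MM1.S, -0.94 (SE 0.13, adjusted p = 0.0014) and -0.54 (SE 0.13, adjusted p = 0.015), and with H929 shRNA2, -0.43 (SE 0.10, adjusted p = 0.0024), where the value against the other scramble group was 0.31, called higher. PSMC6 rose with H929 shRNA2, from 1055 and 1028 to 1325 and 1293, 0.33 (SE 0.093, adjusted p = 0.0094), and also against the other scramble group (0.60). PSMC5 and PSMC2 fell with MM1.S shRNA1 (-0.55 and -0.44) and in no other comparison. PSMC1, for which 13 pseudogenes are annotated, was called lower with H929 shRNA1 alone (-0.25), a call lost in 13 of 16 alternatives.

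Of the 11 non-ATPases, which form the base and lid of the regulatory particle, 9 fell with MM1.S shRNA1 (median -0.57), 7 with MM1.S shRNA2 (-0.40), 5 with H929 shRNA1 (-0.19) and 8 with H929 shRNA2 (-0.51), and none rose. PSMD14, the deubiquitinase of the lid, was at 149 and 126 CPM in MM1.S scramble, 62.9 and 59.8 with shRNA1 and 101 and 90.0 with shRNA2. PSMD14 in H929 stood at 1010.0 and 855 against 596 and 536 for shRNA1 and 1586 and 1611 against 1249.7 and 1267 for shRNA2. Every hairpin library lay below its scramble libraries, with log2 fold changes of -1.17 (SE 0.13, adjusted p = 0.0005), -0.53 (SE 0.13, adjusted p = 0.017), -0.72 (SE 0.10, adjusted p = 1.6e-05) and -0.34 (SE 0.10, adjusted p = 0.011). Against the other scramble group H929 shRNA2 gave 0.44, called higher. PSMD11, a lid subunit, was called lower in each comparison as well, from -0.65 (MM1.S shRNA1) to -0.31 (H929 shRNA1). For PSMD11 the MM1.S shRNA2 call was lost in 11 of 12 alternatives and the H929 shRNA2 value was -0.066, not called, against the other scramble group. PSMD2, a large scaffold subunit of the base, was at 533 and 516 CPM in MM1.S scramble, 280.2 and 309 with shRNA1 and 332 and 362 with shRNA2, and fell with both, -0.83 (SE 0.12, adjusted p = 0.0013) and -0.60 (SE 0.12, adjusted p = 0.0059). In H929 PSMD2 was at 2959 and 2723 against 3469 and 2993 for shRNA1, 0.18 (SE 0.10, adjusted p = 0.14), and at 4211 and 5116 against 3323 and 3191 for shRNA2, -0.51 (SE 0.10, adjusted p = 0.00078). Against the other scramble group the shRNA2 value of PSMD2 was 0.20, not called, and that with shRNA1 was -0.53, called lower. PSMD1 and PSMD3 followed the same calls as PSMD2, lower in 3 comparisons and at 0.035 and -0.025 with H929 shRNA1. With H929 shRNA2 and the other scramble group PSMD1 was at 0.53, called higher, and PSMD3 at -0.13, not called; with MM1.S shRNA2 the PSMD1 call was lost in 6 of 12 alternatives. PSMD8, a lid subunit, fell with MM1.S shRNA1 (-0.58) and with both H929 hairpins (-0.26 and -0.75). It fell with both against the other scramble group too (-0.65 and -0.36), and the H929 shRNA1 call was lost in 5 of 16 alternatives with its own scramble libraries. PSMD4, a ubiquitin receptor, fell with shRNA1 in both lines (-0.49 and -0.24) and was at 0.26 and 0.10 with shRNA2, not called. PSMD7 and PSMD12 fell with shRNA2 in both lines, and PSMD12 also fell with MM1.S shRNA1. PSMD13 fell with shRNA1 in both lines, calls lost in 3 alternatives in MM1.S and 2 in H929, and PSMD6 passed in none. The PSMD12 call was lost in 4 of 12 alternatives with MM1.S shRNA1 and in 10 of 12 with MM1.S shRNA2. With H929 shRNA2 PSMD12 was at 0.051, not called, against the other scramble group.

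The assembly factors held the member with the lowest fold change in MM1.S and one of the few that rose. PSMG1, a chaperone of the alpha ring, was at 80.5 and 78.1 CPM in MM1.S scramble, 23.1 and 21.1 with shRNA1 and 47.8 and 42.6 with shRNA2. PSMG1 in H929 stood at 369.8 and 366 against 123 and 135 for shRNA1 and 688 and 629 against 339.8 and 287 for shRNA2. Its hairpin libraries lay below their scramble libraries in all 4 comparisons, at 27.9%, 57.0%, 35.1% and 47.6% of the mean. The log2 fold changes were -1.84 (SE 0.13, adjusted p = 6.5e-05), -0.81 (SE 0.12, adjusted p = 0.0019), -1.50 (SE 0.12, adjusted p = 5.4e-08) and -1.07 (SE 0.12, adjusted p = 4.9e-06). The H929 shRNA2 libraries were, however, near the scramble libraries for shRNA1, and against those the value was -0.24 (adjusted p = 0.15). PSMG2, the partner of PSMG1, also fell in each comparison, by 0.76 and 0.51 in MM1.S and by 0.41 and 0.33 in H929, the last of these not called against the other scramble group (0.10). PSMG4, which pairs with PSMG3, fell with MM1.S shRNA1 (-0.60) and with both H929 hairpins (-0.55 and -0.47) against either scramble group, while PSMG3 passed in none. PSMD5, a chaperone that holds ATPases of the base during assembly, was at 52.3 and 45.4 CPM in MM1.S scramble, 55.2 and 51.1 with shRNA1 and 69.8 and 62.5 with shRNA2. PSMD5 in H929 stood at 238 and 281 against 413 and 411 for shRNA1 and 324 and 302 against 399 and 391 for shRNA2. It rose with MM1.S shRNA2, 0.44 (SE 0.13, adjusted p = 0.033), and with both H929 hairpins, 0.67 (SE 0.12, adjusted p = 0.00019) and 0.34 (SE 0.12, adjusted p = 0.032), and overlapped scramble with MM1.S shRNA1 (0.12, SE 0.13, adjusted p = 0.49). Against the other scramble group PSMD5 was still higher with both H929 hairpins (0.39 and 0.61). PSMD5 was lower in the scramble for shRNA1, so the second of these was largely fixed in advance. The H929 shRNA2 call was lost in 5 of 16 alternatives with its own scramble libraries. In MM1.S the shRNA2 call was lost in 3 of 12 alternatives, each without 1 library. PSMD10 (gankyrin), another chaperone of the base, moved in opposite directions with the 2 hairpins in H929. It was at 58.7 and 48.4 CPM in MM1.S scramble, 33.6 and 28.6 with shRNA1 and 70.0 and 60.6 with shRNA2. PSMD10 in H929 stood at 474 and 432 against 271 and 261 for shRNA1 and 567 and 537 against 801 and 755 for shRNA2. PSMD10 fell with shRNA1, -0.78 (SE 0.16, adjusted p = 0.0059) and -0.76 (SE 0.11, adjusted p = 1.5e-05), and with shRNA2 it was at 0.29 (SE 0.15, adjusted p = 0.18) in MM1.S and rose in H929, 0.49 (SE 0.11, adjusted p = 0.0013). For PSMD10, 3 pseudogenes are annotated. Over all members 12 have an annotated pseudogene, among them PSMA6 with 4 and PSME2 with 2. PSMD9, the third chaperone of the base, passed in none of the 4 and had the lowest level per kilobase of the tested members.

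Of the other regulators, PSME3, which forms a nuclear cap of the core, was at 258 and 238 CPM in MM1.S scramble, 133 and 126 with shRNA1 and 240.2 and 251 with shRNA2. PSME3 in H929 stood at 2658 and 2599.9 against 1668 and 1743 for shRNA1 and 3447 and 3812 against 3552 and 3451 for shRNA2. It fell with shRNA1 in both lines, -0.94 (SE 0.11, adjusted p = 0.00066) and -0.62 (SE 0.083, adjusted p = 1.0e-05), and overlapped scramble with shRNA2, -0.015 (SE 0.11, adjusted p = 0.93) and -0.050 (SE 0.083, adjusted p = 0.66). PSME4, the large single-chain activator, rose with H929 shRNA1 (1479 and 1467 to 1903 and 1879, 0.36, SE 0.084, adjusted p = 0.0018) and fell with H929 shRNA2 (1829 and 1683 to 1410.3 and 1455, -0.29, SE 0.084, adjusted p = 0.01). Neither PSME4 call held against the other scramble group, where the values were 0.11 and -0.040. PSMF1, an inhibitor of the core, rose with H929 shRNA2 alone, from 1068 and 1179.6 to 1416 and 1357, 0.30 (SE 0.091, adjusted p = 0.013), and against the other scramble group by 0.43.

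**Figure D4:**
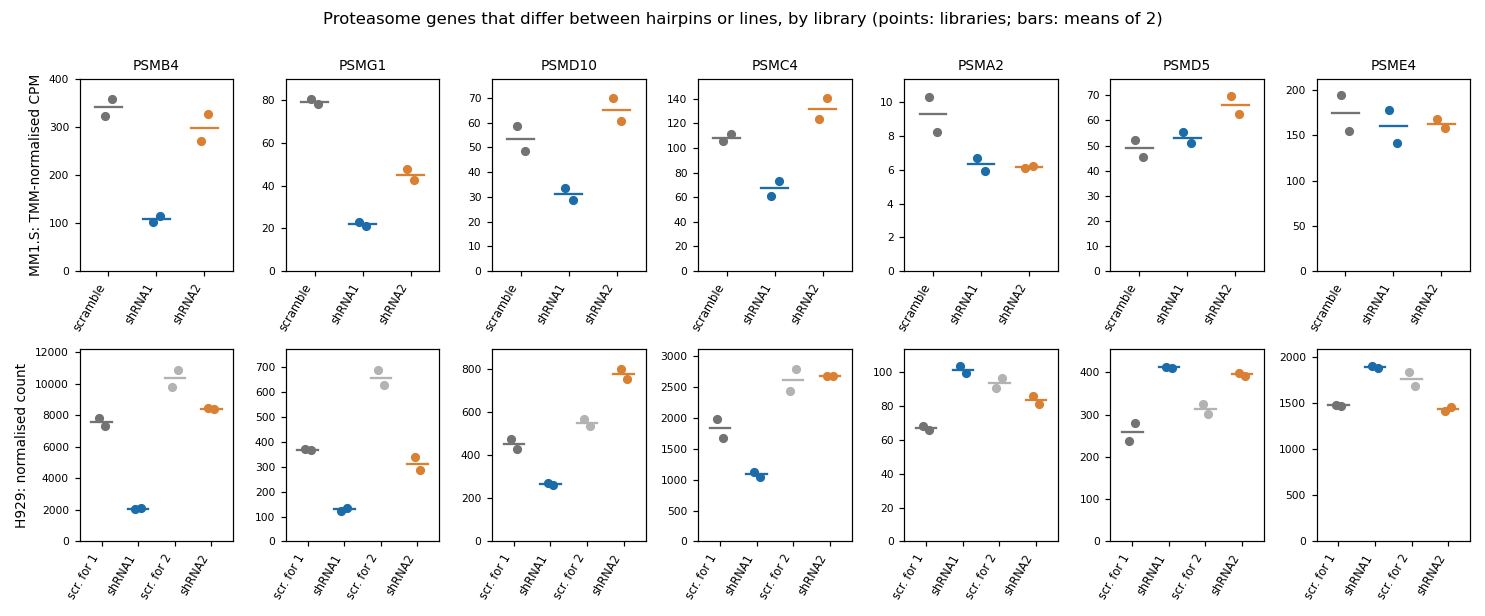
Levels of 7 proteasome genes that differed between hairpins or lines, in each library (MM1.S in CPM, top; H929 in deposited normalised counts, bottom; points are libraries, bars means of 2, axes start at 0). PSMB4 and PSMG1 are lowest with shRNA1 in both lines, and PSMD10 lies below scramble with shRNA1 and above it with shRNA2.

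The hairpins were compared with each other directly. In MM1.S 17 members were higher with shRNA2 than with shRNA1 and 0 lower, against 16.4% and 20.4% of all tested genes, with a members' median of 0.34. They included 6 of the 7 constitutive beta subunits, 3 of 6 ATPases (PSMC2, PSMC4 and PSMC5), PSMD4, PSMD14, PSMB10, PSME1, PSME3, PSMF1, PSMD10 and PSMG1. The largest differences were those of PSMB4 (1.47), PSMD10 (1.07) and PSMG1 (1.03). In H929 the difference between the effects of shRNA2 and shRNA1, each against its own scramble libraries, was positive for 12 members and negative for 8 at an adjusted p under 0.05, against 20% and 21.9% of all tested genes. Of the 12, 10 were also among the 17 of MM1.S (PSMB2, PSMB3, PSMB4, PSMB6, PSMC4, PSMD4, PSMD10, PSMD14, PSME3 and PSMF1), and the others were PSMA6 and PSMC6. The same overlap over all tested genes was not counted, so whether the members shared more calls than other genes is not known. The 8 negative ones were PSMA2, PSME4 and 6 of the 11 non-ATPases (PSMD1, PSMD2, PSMD3, PSMD7, PSMD8 and PSMD12), the largest being PSMA2 (-0.76) and PSMD2 (-0.69). None of the 5 immunoproteasome genes was called for this difference, whose values for them ran from -0.17 to 0.41. Fewer members were called for it without H929 shRNA2 replicate 1 or 2, and the shares of all genes in those fits are not reported here.

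Leaving out 1 library at a time ended no call of PSME2, PSMG1, PSMB5, PSMB6, PSMD10 or PSME3, nor those of PSMB3, PSMB4 and PSMD14 with shRNA1. With MM1.S shRNA1, the calls lost without shRNA1 replicate 1 included those of PSMB9, PSMC2, PSMC4, PSMC5, PSMD3, PSMD4, PSMD8, PSMD11, PSMA6, PSMA7, PSMB7 and PSMG4. With MM1.S shRNA2, those of PSMC3, PSMD5, PSMD7, PSMD14 and PSMG2 were lost without either shRNA2 library, and those of PSMD2 and PSMD3 without shRNA2 replicate 1. With H929 shRNA1, those of PSMD8 and PSMD11 were lost without scramble replicate 1 or shRNA1 replicate 2, and PSMD4 lost its call without either of these or either shRNA2 library. With H929 shRNA2, those of PSMB2, PSMB3, PSMB4, PSMB7, PSMC6, PSMD1, PSMD5, PSMD14, PSME4, PSMF1 and PSMG2 were lost without shRNA2 replicate 2, and that of PSMB8 without shRNA2 replicate 1. The higher members then numbered 1 without either shRNA2 library and 2 without scramble replicate 1, in place of 4, and the lower ones 15 without shRNA2 replicate 2, in place of 24.

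The 2 H929 scramble groups differed from each other in most proteasome genes. In the scramble libraries for shRNA2, 33 of 46 members were higher than in those for shRNA1 and 1, PSMB9, was lower, against 16.8% and 13.1% of all tested genes. The members' median was 0.39, beside 0.019 over all genes, and every one of the 14 core subunits and 17 regulatory particle subunits had a value above 0. All 7 constitutive beta subunits and all 6 ATPases were called higher, as were 10 of 11 non-ATPases and 5 of 7 alpha subunits. The largest values were those of PSMD1 (0.86, SE 0.10, adjusted p = 1.4e-05), PSMG1 (0.84, SE 0.12, adjusted p = 0.00014) and PSMD14 (0.78, SE 0.10, adjusted p = 3.7e-05). The immunoproteasome genes did not share this direction: their median was -0.010, with PSMB9 at -0.32 (SE 0.093, adjusted p = 0.016), PSMB10 at -0.32 (SE 0.13, adjusted p = 0.067) and PSMB8 at -0.010 (SE 0.10, adjusted p = 0.95), and of the 5 only PSME2 was called higher (0.32). In the same libraries 7 of 11 genes of antigen processing and interferon signalling were lower and 0 higher; their part in the difference was not tested. Because the hairpin and the scramble group used for it vary together, the choice of scramble group cannot be told apart from the difference between hairpins in H929.

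Set against the other scramble group, H929 shRNA1 had 39 members lower and 1 higher (PSMD5) in place of 22 and 4, where 32.4% of all genes were lower and 31.3% higher. H929 shRNA2 had 7 lower and 20 higher in place of 24 and 4, where 21.9% of all genes were lower and 17.6% higher. All 22 members that were lower with shRNA1 against its own scramble libraries were lower against the others as well. Most members were higher in those other libraries, as given above, so this outcome was largely fixed in advance and adds no separate support. With shRNA2 the 7 members lower against each scramble group were PSMB8, PSMB9, PSMD7, PSMD8, PSME1, PSME2 and PSMG4, of which 4 are immunoproteasome genes. Of these 7, PSMB9 was lower in the scramble for shRNA2 and PSMB8 nearly equal, so their second calls were largely fixed in advance. The 4 higher against each were PSMC6, PSMD5, PSMD10 and PSMF1. These 4 had a higher mean in the scramble for shRNA2, so for them too the second call was largely fixed in advance. The members lower with both H929 hairpins against each scramble group were PSMB9, PSMD8, PSME1, PSME2 and PSMG4. Of these, PSMB9 and PSME2 were also lower with both hairpins in MM1.S. The shares of all genes lower against each scramble group are not reported here. Whether the members stand out in these lists is therefore not known.

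**Figure D5:**
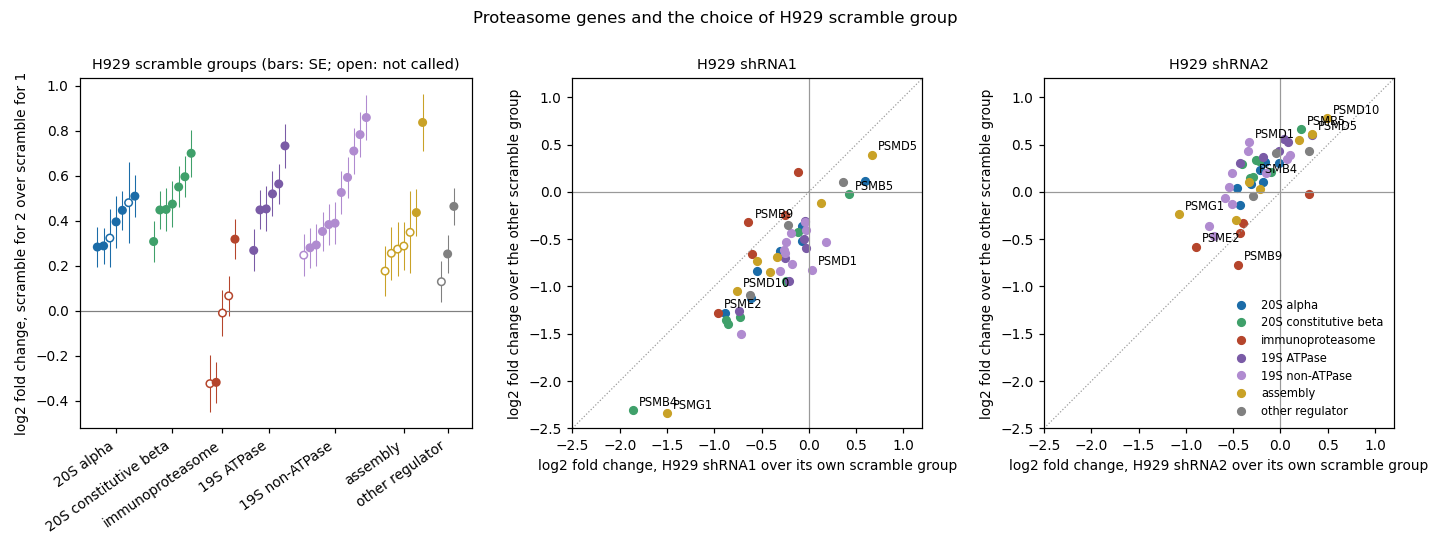
Left, log2 fold change of each tested proteasome gene between the H929 scramble groups, by class (points with SE; open points not called). Middle and right, log2 fold change of each gene with H929 shRNA1 and shRNA2 over its own scramble group (horizontal) and over the other one (vertical), with the line of equal values dotted: with shRNA1 most points lie below that line, with shRNA2 most lie above it, and PSMB9 and PSME2 stay below 0 on both axes.

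The effect of each hairpin was compared between the lines in 1 fit over all 14 libraries, as the MM1.S effect minus the H929 effect. For shRNA1, 8 members were more negative in MM1.S and 0 more positive, against 11.0% and 10.4% of all 20370 genes tested. They were PSMA2 (-1.14, SE 0.24, adjusted p = 0.0043), PSMD2 (-1.02, SE 0.16, adjusted p = 0.00065), PSMC3 (-0.74, SE 0.16, adjusted p = 0.0062), PSMD1 (-0.65, SE 0.15, adjusted p = 0.0084), PSMD3 (-0.55), PSMD5 (-0.54), PSMC5 (-0.53) and PSMC2 (-0.39). Of these, 6 belong to the regulatory particle, and in 5 of them (PSMC2, PSMC5, PSMD1, PSMD2 and PSMD3) the H929 shRNA1 values ran from -0.055 to 0.18, none called. With the other H929 scramble group as control all 8 calls were lost and 7 other members were more positive in MM1.S (PSMA6, PSMB4, PSMB5, PSMB6, PSMB7, PSMC4 and PSMG1), where 12.4% of all genes were. Without H929 shRNA1 replicate 1 or H929 scramble for shRNA1 replicate 2 the count was 5. For shRNA2, 1 member, PSMB5, was more positive in MM1.S, 0.78 (SE 0.14, adjusted p = 0.0037), and 0 were more negative, against 4.34% and 5.41% of all genes; against the other scramble group that value was 0.33 and not called, and 10 other members were more negative, where 11.3% of all genes were. The constitutive beta subunits and the immunoproteasome genes had 0 calls for shRNA1, with values from -0.30 to 0.20 and from -0.13 to 0.13.

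Of 36 genes that act with the proteasome (assembly, ubiquitin supply, shuttling and transcriptional control), 13 fell and 2 rose with MM1.S shRNA1, 11 fell and 3 rose with MM1.S shRNA2, 16 fell and 6 rose with H929 shRNA1, and 22 fell and 1 rose with H929 shRNA2. Of all tested genes 19.7%, 21.7%, 27.7% and 25.0% fell in these comparisons and 17.8%, 14.9%, 25.7% and 18.0% rose. NFE2L2, a transcription factor of the antioxidant response that can drive proteasome genes, was at 56.3 and 56.3 CPM in MM1.S scramble, 110.5 and 95.4 with shRNA1 and 114 and 100.3 with shRNA2. H929 had NFE2L2 at 622 and 609 against 1062 and 1136 for shRNA1 and 783 and 649.9 against 906 and 861 for shRNA2. All hairpin libraries lay above their scramble libraries. It rose by 0.87 (SE 0.13, adjusted p = 0.0016) and 0.93 (SE 0.13, adjusted p = 0.0013) in MM1.S, and by 0.83 (SE 0.10, adjusted p = 4.7e-06) and 0.31 (SE 0.10, adjusted p = 0.025) in H929. NFE2L1, the factor that restores proteasome genes when the proteasome is inhibited, fell in H929 (-0.51, SE 0.10, adjusted p = 0.00047 and -0.60, SE 0.10, adjusted p = 0.00017) and was at 0.45 (SE 0.23, adjusted p = 0.16) and 0.22 (SE 0.23, adjusted p = 0.49) in MM1.S. DDI2, the protease that activates NFE2L1, rose with H929 shRNA1 (0.28), fell with H929 shRNA2 (-0.42) and did not pass in MM1.S. UFD1L, a cofactor of the segregase VCP, fell with each hairpin, by 1.17 and 0.60 in MM1.S and by 0.45 and 0.37 in H929. Its MM1.S levels were 91.7 and 82.8 CPM in scramble, 38.3 and 39.3 with shRNA1 and 56.3 and 58.5 with shRNA2. POMP, which PSMG1 and PSMG2 precede in building the core, fell with shRNA1 in both lines (-0.58 and -0.37) and was at 0.044 and -0.087 with shRNA2. ADRM1, a ubiquitin receptor, fell in H929 (-0.36 and -0.29) and did not pass in MM1.S. Among the largest called falls were UFD1L and VCP with MM1.S shRNA1 (-1.17 and -0.99), and PAAF1, MAFK and FAF2 with MM1.S shRNA2 (-1.18, -0.88 and -0.85). In H929 they included UBA1 with H929 shRNA1 (-1.04), and MAFF, PAAF1 and RAD23B with H929 shRNA2 (-1.02, -0.97 and -0.87). The H929 calls of these partner genes are against the hairpin's own scramble libraries, and values against the other group are not reported here.

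Of the 11 genes of antigen processing and interferon signalling, 1 fell and 3 rose with MM1.S shRNA1, 5 fell and 2 rose with MM1.S shRNA2, 4 fell and 2 rose with H929 shRNA1, and 6 fell and 1 rose with H929 shRNA2, beside the same shares of all genes. TAP1, a peptide transporter whose gene lies beside PSMB9 in the MHC region, was at 97.8 and 113 CPM in MM1.S scramble, 108 and 129 with shRNA1 and 64.7 and 76.3 with shRNA2. It fell with MM1.S shRNA2, -0.58 (SE 0.15, adjusted p = 0.018), and with both H929 hairpins, -0.20 (SE 0.081, adjusted p = 0.047) and -0.66 (SE 0.081, adjusted p = 8.1e-06), but not with MM1.S shRNA1, 0.17 (SE 0.15, adjusted p = 0.4), where PSMB9 fell. IRF1, which drives immunoproteasome genes, rose with both MM1.S hairpins, 0.77 (SE 0.11, adjusted p = 0.0014) and 0.34 (SE 0.11, adjusted p = 0.045), and was at 0.17 and 0.029 in H929, not called. NLRC5, an activator of MHC class I genes, rose with shRNA1 in both lines (0.64 and 0.71) and with H929 shRNA2 (0.50). All H929 calls of these 11 genes are against the hairpin's own scramble libraries. Most of the 11 were lower in the scramble for shRNA2, so the calls may depend on that choice. Values against the other group are not reported here. PSMB9 and PSME2 thus fell in MM1.S in libraries in which IRF1 was higher; its part in the result was not tested.

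Per kilobase of transcript, PSMB4 had the highest level of the tested members in each scramble group, at 354 ± 25.3 CPM per kilobase (SD, 2 libraries) in MM1.S. In MM1.S scramble PSME3 (249 ± 14.2), PSMA7 (215 ± 28.5), PSMD4 (186 ± 2.42) and PSMD2 (152 ± 3.55) followed; PSMA7 did not differ from its neighbours PSME3 and PSMD4 beyond their SDs. Ranks between genes depend on the 1 transcript whose length was used. For PSME3 it had 998 bases, where the gene has 5152 exonic bases, and for PSMC1 it had 4448 of 6161. With MM1.S shRNA1, PSMB4 stood at 112 ± 9.67 and ranked 4 of 46, below PSMA7, PSMD4 and PSME3. PSMB5 ranked 32 in MM1.S scramble (27.1 ± 1.21), 22 with shRNA1 (39.9 ± 0.57) and 21 with shRNA2 (53.2 ± 1.30), and PSME2 ranked 13, 21 and 24. In H929 PSMB9 ranked 9 in the scramble for shRNA1 and 16 with shRNA1, and 17 in the scramble for shRNA2 and 21 with shRNA2. Summed over all 48 genes, the normalised level was 5579 and 5364 CPM in MM1.S scramble, 3454 and 3559 with shRNA1 and 4726 and 4952 with shRNA2.

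In the authors' deposited table for MM1.S shRNA1, 38 of the 46 members were lower and 1 higher at an adjusted p under 0.05, where 40.3% of all genes with an adjusted p were called, and 31 of the 32 called here were called the same way. In the authors' deposited table for MM1.S shRNA2 these numbers were 21 and 7, where 41.4% of all genes were called, with 18 of 18 called the same way. The authors' deposited tables for H929 gave 18 lower and 3 higher with shRNA1, where 34.7% of all genes were called, with 21 of 26 called the same way. With shRNA2 the authors' deposited table gave 21 lower and 3 higher, where 31.2% of all genes were called, with 24 of 28. No member was called in opposite directions by the authors' deposited tables and the tests used here.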

How the data were processed

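Poly(A) RNA of 14 libraries was measured; per the submitters' processing notes the authors aligned reads with STAR 2.5.3a to GRCh38 (hg38) and used DESeq2 1.24.0. The counting tool, annotation release and strandedness are not given in the sources used here. The deposited MM1.S table holds raw counts per gene. The deposited H929 table holds counts divided by 1 size factor per library, a normalised signal, from which whole reads were recovered for 100% of values within 0.01. The authors' deposited comparison tables hold log2 fold changes and adjusted p-values. 18 repeated identifiers were left out, and 0 per-sample columns were unused. The columns of shRNA2 in both lines, whose names carry another hairpin number, and 1 H929 scramble column for shRNA1 (replicate 2) were assigned by elimination.

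Tests on MM1.S used edgeR 4.0.16 (quasi-likelihood F test, TMM, filterByExpr with a minimum count of 10), with all 6 libraries in 1 fit. H929 was tested with limma 3.58.1 (trend) on log2(value + 1), for genes at 10 or more in at least 2 of its 8 libraries, so its fold changes understate those of low genes; the line differences used limma on all 14 libraries on the same scale, with MM1.S counts divided by median-of-ratios size factors. P-values were adjusted by Benjamini-Hochberg over all tested genes and called under 0.05. Standard errors are of log2 fold changes. The edgeR and limma fits were tested on simulated counts with known changes, and the DESeq2 fit and the other steps were not. Total counts limit the precision of low genes, and other uncertainty is not covered by counting error.

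The members and lists were chosen with earlier results of these data known. Individual values are given for PSMB5 to PSMB7, the immunoproteasome genes, the members with the highest and lowest fold change of each class in each comparison, those called the same way in all 4 hairpin comparisons or opposite ways with a hairpin in the lines, and up to 5 called each way for the line difference; PSMA3, PSMB1, PSMB2, PSMC2, PSMD7, PSMD9, PSMD12, PSMD13, PSMG3 and PSMG4 were named after their values were seen. Of the partner genes, POMP, ADRM1, NFE2L1, NFE2L2, DDI2, TAP1 and IRF1 were set by rule, with the largest called changes, and some genes under that rule are not reported here; UFD1L and NLRC5 in all comparisons were named after their values were seen. Levels per kilobase used 1 principal transcript of GENCODE 29 per gene, the longest of those ranked alike, so ranks between genes depend on that choice. Alternatives were other scalings and filters, DESeq2 1.42.0 or edgeR on recovered reads, fits of only the compared groups, a replicate block, each library left out, and other H929 scramble controls, the last added after seeing the data.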

Additional observations from a re-analysis of the deposited data

Results flagged for a closer look

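For 9 members the effect of a hairpin differed between MM1.S and H929, by the test of the difference in the limma fit over all 14 libraries (MM1.S minus H929, log2 scale). With shRNA1 the values were -1.14 for PSMA2, -1.02 for PSMD2, -0.74 for PSMC3, -0.65 for PSMD1, -0.55 for PSMD3, -0.54 for PSMD5, -0.53 for PSMC5 and -0.39 for PSMC2. With shRNA2 the value was 0.78 for PSMB5. With the other H929 scramble group as control, PSMA2 was at -0.66, PSMD2 at -0.31, PSMC3 at -0.0059, PSMD1 at 0.21, PSMD3 at -0.16, PSMD5 at -0.27, PSMC5 at 0.036, PSMC2 at 0.060 and PSMB5 at 0.33, and none of the 9 was called. PSMC2 lost its call in 13 alternatives and PSMD5 in 9.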

How the results depend on the processing

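Against the other H929 scramble group, chosen after seeing the data, directions turned as follows, in log2 fold change. With H929 shRNA1 PSMB5 was at -0.025, PSMD1 at -0.82 and PSMD2 at -0.53. With H929 shRNA2 PSMA3 was at 0.23, PSMA6 at 0.083, PSMA7 at 0.046, PSMB2 at 0.33, PSMB3 at 0.15, PSMB4 at 0.16, PSMB6 at 0.33, PSMB7 at 0.30, PSMC2 at 0.43, PSMC3 at 0.31, PSMC5 at 0.37, PSMD1 at 0.53, PSMD2 at 0.20, PSMD12 at 0.051, PSMD14 at 0.44, PSME3 at 0.41 and PSMG2 at 0.10. The line difference of shRNA1 was 0.53 for PSMB7, 0.060 for PSMC2, 0.036 for PSMC5, 0.21 for PSMD1 and 0.50 for PSMG1, and that of shRNA2 was -0.57 for PSMB2, -0.41 for PSME3 and -0.56 for PSMG1. Against all 4 scramble libraries PSMD1 was at -0.39 with shRNA1, and with shRNA2 PSMB2 was at 0.037, PSMC2 at 0.21, PSMD1 at 0.097 and PSMD14 at 0.046. The level of the scramble groups themselves differed, as reported; beyond that the cause was not tested.

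Members called higher and lower with H929 shRNA1 were 1 and 39 against the other scramble group, with 38 lower against all 4 scramble libraries. With H929 shRNA2 they were 20 and 7 against the other group and 10 and 13 against all 4, and the line difference of shRNA2 then had 10 calls. Under total-count scaling, 6 were higher and 8 lower with MM1.S shRNA2, and 8 and 15 with H929 shRNA2. The shares of all genes against all 4 scramble libraries and under total-count scaling are not reported here.

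The libraries of a group share only a replicate number with those of other groups, and no label says what it stands for. Deviations from the group mean of same-numbered libraries correlated at 0.53 to 0.79 in MM1.S (11241 genes) and at -0.17 to 0.21 in H929 (10964 genes). With the replicate block, 8 members were higher and 24 lower with MM1.S shRNA2, and 1 and 41 with MM1.S shRNA1. PSMA1, PSMA3, PSMA4, PSMD6 and PSMG3, called in no hairpin comparison of the main fit, were then lower with MM1.S shRNA1, and PSMG3 also with MM1.S shRNA2. PSMB8 was then lower with both, and PSMB10 was lower with MM1.S shRNA1. Between the MM1.S hairpins 37 then differed: 36 were higher with shRNA2, among them 6 alpha subunits and all 6 ATPases, and 1 (PSMD7) was lower. Calls over all genes rose as well with the block, to 58.8%, 59.4% and 58.2% of genes in these 3 comparisons, from 36.6%, 37.5% and 36.8%. The line differences had 17 calls for shRNA1 and 3 for shRNA2 with the block. The shares of all genes called for these differences with the block are not reported here.

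Leaving out each library in turn gave 1 to 1 higher and 14 to 31 lower members with MM1.S shRNA1, 1 to 3 and 3 to 10 with MM1.S shRNA2, and 12 to 21 between these hairpins. The ranges were 4 to 5 and 18 to 24 with H929 shRNA1, 1 to 5 and 15 to 26 with H929 shRNA2, 12 to 21 for the difference of the H929 hairpins and 24 to 38 between its scramble groups. Line differences numbered 5 to 11 for shRNA1 and 1 to 1 for shRNA2. A lone library was then assumed to vary like the other groups. The shares of all genes called in the fits without 1 library are not reported here. Counts of members from such fits, here and above, thus have no background beside them. Over the 46 tested members, the 4 hairpin comparisons and both line differences, 4252 results kept direction and call, 260 lost the call, 147 gained it and 33 turned. Depth limits PSMA8 and PSMB11, which were not detectable above a few reads.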
